A study of Mus musculus with 18 samples.

Results

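The genes described here are those of the G1 restriction step of the cell cycle, namely the D-type cyclins Ccnd1, Ccnd2 and Ccnd3, the E-type cyclins Ccne1 and Ccne2, the kinases Cdk4 and Cdk6, the INK4 inhibitors Cdkn2a and Cdkn2b, and Cdkn1b, which encodes p27. They were chosen by gene symbol, and all 10 were found among the 14521 named genes of the table. mRNA was sequenced in 6 female littermate SKH-1E Hairless mice, outbred animals without a functional Hairless gene. All mice received chronic ultraviolet radiation (UVR) from a solar simulator and were killed after a rest from irradiation. From each mouse a squamous cell carcinoma (SCC), a papilloma (PAP) and skin without a lesion (CHR) were taken, which made 18 libraries with n = 6 in each group, numbered by mouse as 2, 3, 7, 8, 9 and 10. The reference tissue was therefore itself irradiated, each mouse contributed 1 lesion of each kind, and no unexposed skin was analysed here. The labels give neither the age of the mice nor a batch.

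D-type cyclins are induced by growth factors and activate CDK4 and CDK6, which begin to phosphorylate the retinoblastoma protein (RB). Phosphorylated RB releases E2F transcription factors, which switch on the E-type cyclins, and cyclin E with CDK2 completes the step and commits the cell to DNA replication. INK4 proteins bind CDK4 and CDK6 and keep D-type cyclins from activating them, whereas p27 restrains cyclin E with CDK2. In the epidermis, cyclin D1 and CDK4 are known to support the growth of keratinocytes, and the Cdkn2a locus is a tumour suppressor.

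Levels are given as normalised read counts, that is, reads recovered from the deposited values and divided by the size factor of the library. The libraries held between 15.4 M and 21.0 M recovered reads, with a median of 18.9 M. Changes are log2 fold changes on the log2(value + 1) scale of the deposited values, with a standard error (SE) and a p-value from limma with mouse as a block, adjusted over all 14521 genes, and a gene was called at an adjusted p under 0.05. That scale compresses weakly expressed genes. The groups differed widely in tissue make-up. All 10 keratinocyte markers were measured, and their summed normalised reads were 287791 to 443093 in CHR, 690863 to 1122232 in PAP and 254871 to 776728 in SCC. All 8 skeletal muscle markers were measured, and their sum was 379098 to 568331 in CHR, 159 to 28143 in PAP and 384 to 188428 in SCC. No marker of either list was at 0 in every library. In bulk tissue, fewer cells of a type and less RNA per cell cannot be told apart, and the part of tissue make-up in the results below was not tested.

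In PAP against CHR, 6 of the 10 genes were called higher (Ccnd1, Ccne1, Ccne2, Cdk4, Cdk6 and Cdkn2a), Ccnd2 was called lower and 3 were not called (Ccnd3, Cdkn2b and Cdkn1b). Over all genes, 52.6% were called in this comparison, 23.3% higher and 29.3% lower. The median log2 fold change of the 10 genes was 0.86, against 0.00 over all genes. In SCC against CHR, 5 were called higher (the same list without Cdkn2a), Ccnd2 was called lower and 4 were not called. Here 38.4% of all genes were called, 15.8% higher and 22.7% lower, and the medians were 0.76 for the 10 genes and -0.02 over all genes. Of all calls in SCC against CHR, 41% were higher, and 50.5% when limma-voom was run on recovered reads. In SCC against PAP, limma called 0 of the 10 genes, against 9.85% of all genes (8.75% higher and 1.1% lower), a share that fell to 0 without mouse 7, without mouse 8 or with only those groups in the fit. None of the 10 had an unadjusted p under 0.05 there, and limma-voom also called 0, with 0 at an unadjusted p under 0.05.

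**Figure D1:**
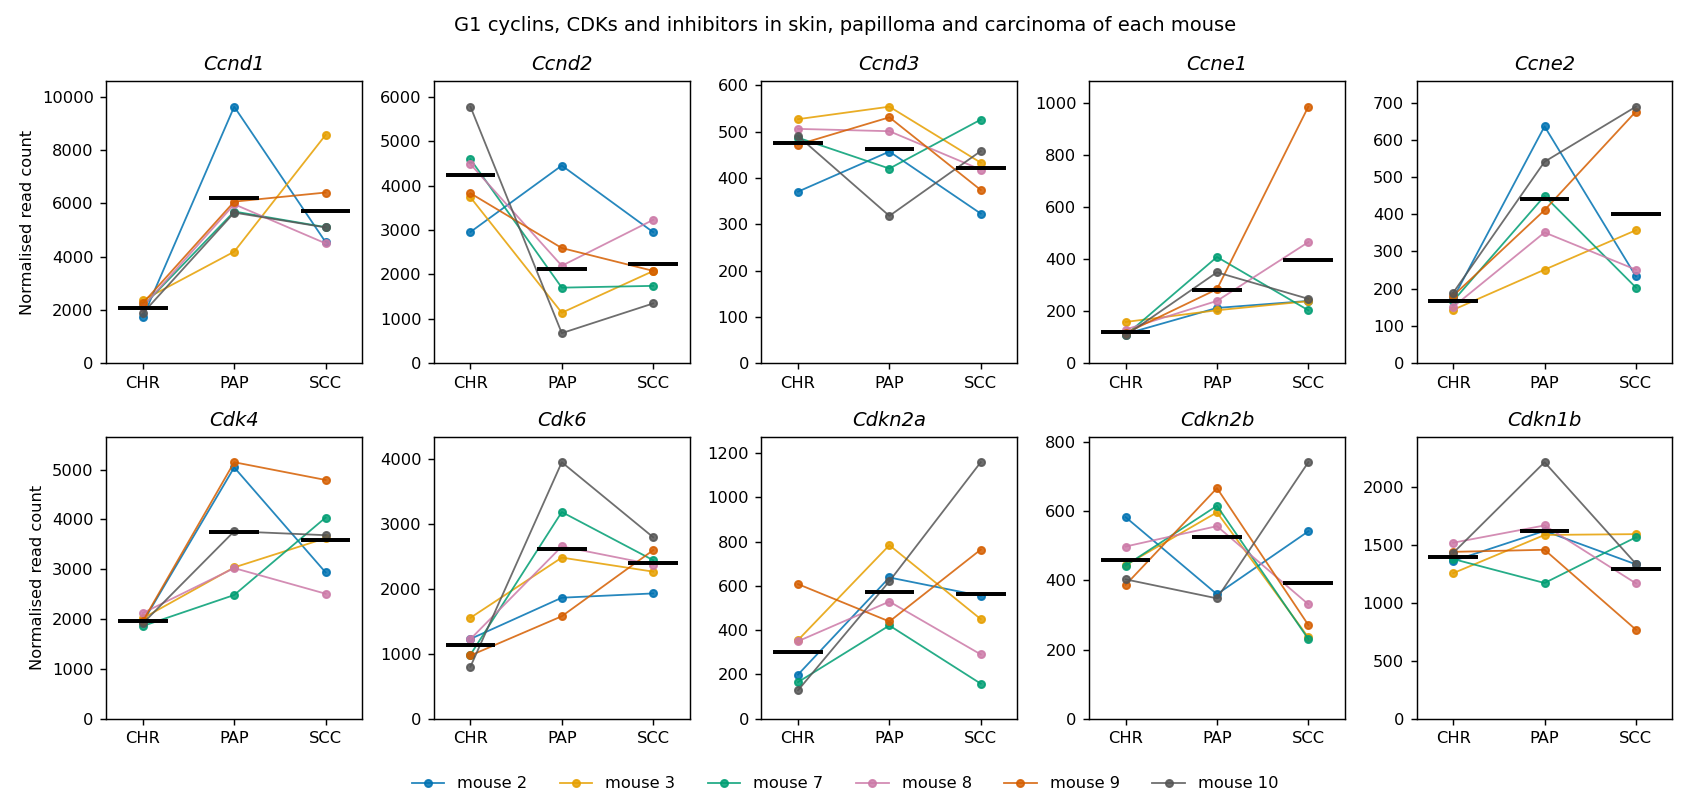
Normalised read count (vertical axes, each from 0) of the 10 genes in CHR, PAP and SCC (horizontal axes). Points are libraries, lines join the 3 libraries of a mouse and black bars are group means. For Ccnd1, Ccne1, Ccne2, Cdk4 and Cdk6, all 6 papillomas and all 6 carcinomas lay above all 6 CHR libraries.

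The plot of counts by library shows 5 genes whose lesions lay wholly above the skin of all mice, namely Ccnd1, Ccne1, Ccne2, Cdk4 and Cdk6. Such a separation in the higher direction was seen for 14.4% of all genes in PAP against CHR and for 8.57% in SCC against CHR. None of the 10 genes lay wholly below the skin, where 19.3% and 11.3% of all genes did, so that 5 of 10 were separated in either direction against 33.8% and 19.9% of all genes. Between SCC and PAP all 10 genes overlapped, and 0.413% of all genes did not (0.255% higher and 0.158% lower in SCC).

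**Figure D2:**
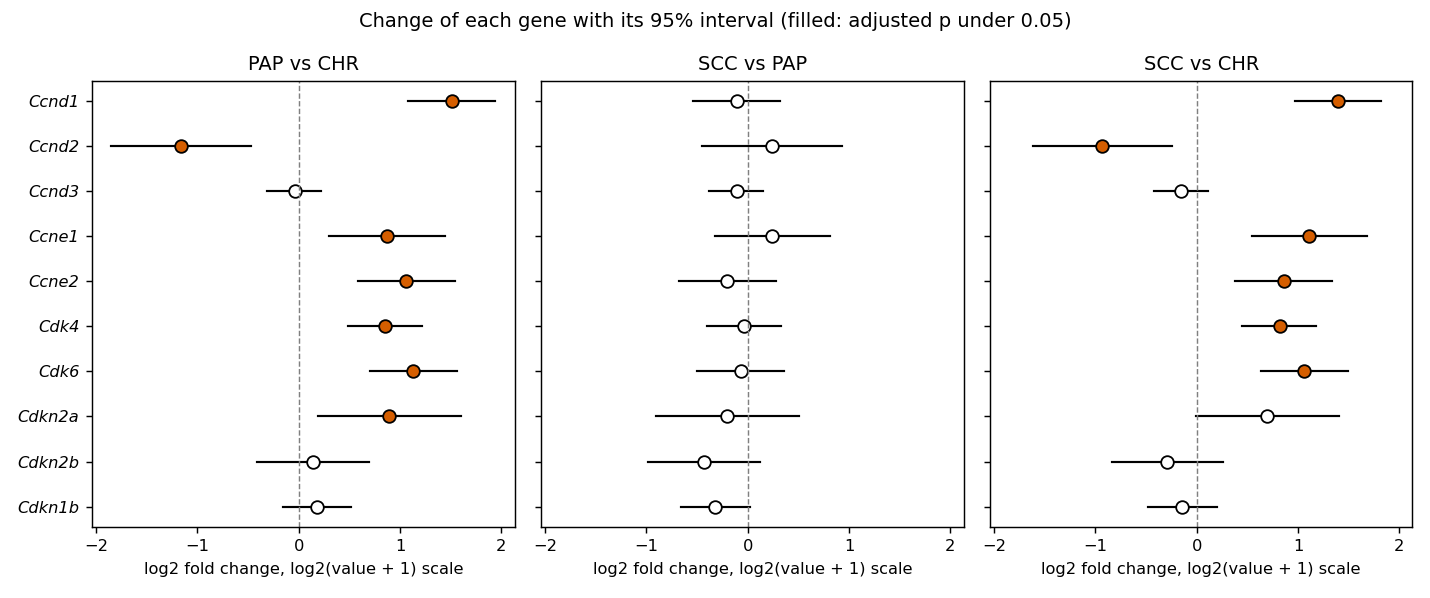
log2 fold change on the log2(value + 1) scale (horizontal axis) of each gene in PAP against CHR, SCC against PAP and SCC against CHR. Points are limma estimates, lines are 95% intervals and filled points have an adjusted p under 0.05. The called genes in PAP against CHR run from -1.16 for Ccnd2 to 1.51 for Ccnd1, and every interval in SCC against PAP includes 0.

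Ccnd1 encodes cyclin D1 and lies on the minus strand of chromosome 7 (chr7:144929931-144939925, GRCm38). Its normalised read count was 1713 at the lowest, 2124 at the median and 2357 at the highest in CHR. The 6 papillomas gave 4183, 5826 and 9626 in the same order, the highest in mouse 2. The 6 carcinomas gave 4494, 5098 and 8563, the highest in mouse 3. Every lesion stood above every skin sample. The group means were 2073 ± 239 in CHR, 6195 ± 1814 in PAP and 5700 ± 1562 in SCC (SD, n = 6). Ccnd1 rose by 1.51 ± 0.20 (log2, SE) in PAP against CHR (limma adjusted p = 4.19e-05) and was higher in 6 of 6 mice, by 1.77-fold to 5.62-fold within a mouse. The rise in SCC against CHR was 1.39 ± 0.20 (limma adjusted p = 0.000217), again in 6 of 6 mice, by 2.13-fold to 3.63-fold. Between SCC and PAP the log2 difference was -0.11, with a 95% interval of -0.54 to 0.32 (limma adjusted p = 0.781). The carcinoma of mouse 2 had 0.472 times the Ccnd1 of its papilloma and that of mouse 3 had 2.05 times, and the other mice lay between these.

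Ccnd2, which encodes cyclin D2, moved the other way. The gene lies on chromosome 6 (chr6:127125162-127152193, minus strand). Its normalised read count was 2953, 4153 and 5776 (lowest, median and highest) in CHR, 674, 1945 and 4450 in PAP, and 1343, 2075 and 3226 in SCC. Mouse 10 had the lowest papilloma and the lowest carcinoma but the highest CHR value, and mouse 2 had the highest papilloma, so the groups overlapped. Ccnd2 fell by 1.16 on the log2 scale in PAP against CHR (SE 0.32, limma adjusted p = 0.00816) and was lower in all mice but mouse 2, where the papilloma was 1.51-fold higher than the skin. In SCC against CHR it fell by 0.93 (SE 0.32, limma adjusted p = 0.0359) and was higher in 0 of 6 mice, with the carcinoma of mouse 2 at 0.999 times its skin and that of mouse 10 at 0.233 times. That call was lost when mouse 3, 7, 8, 9 or 10 was left out, with limma adjusted p between 0.0609 and 0.107. The papilloma of mouse 10 had the lowest summed markers of 6 of the 7 other cell types examined (skeletal muscle, adipocyte, dermal fibroblast, T cell, myeloid and endothelial) among papillomas, and the carcinoma of mouse 10 had the lowest of 5 of 7 among carcinomas. Over the groups, the summed dermal fibroblast markers (6 of 6 measured) were 68148 to 138448 in CHR, 3783 to 100760 in PAP and 11292 to 275437 in SCC, and the summed myeloid markers (5 of 6 measured) were 30134 to 49799, 978 to 6595 and 3215 to 43312. Gene by gene, the median log2 fold change of the fibroblast markers was -3.10 in PAP against CHR and -1.12 in SCC against CHR. In the latter, 2 of the 6 were called lower and 0 higher, where 22.7% and 15.8% of all genes were. The highest Ccnd2 among papillomas was that of mouse 2, whereas mouse 9 had the highest fibroblast and myeloid sums. The summed skeletal muscle markers were highest in mouse 2 in every group, at 568331 in CHR, 28143 in PAP and 188428 in SCC. The Ccnd2 of mouse 2 was the highest of the papillomas but the lowest of the skin samples, at 2953. Among carcinomas it was 2949, below the 3226 of mouse 8. Whether these cells account for the level of Ccnd2 was not tested.

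Ccnd3 encodes cyclin D3 (chr17:47505051-47599691, plus strand). Its means were 475 ± 54.7 normalised reads in CHR, 463 ± 86.4 in PAP and 422 ± 69.7 in SCC (SD, n = 6), and the groups overlapped. It was not called in any comparison, with 95% intervals of the log2 difference of -0.31 to 0.22 in PAP against CHR and -0.42 to 0.11 in SCC against CHR.

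Because Ccnd1 and Ccnd2 moved in opposite directions, the make-up of D-type cyclin transcripts differed between skin and lesions. Divided by the length of the annotated exons, Ccnd1 gave 47% ± 5.56 of the summed D-type cyclin reads per kb in CHR, 83.2% ± 4.6 in PAP and 80.2% ± 6.55 in SCC (SD, n = 6). The Ccnd2 share was 47.2% ± 5.86, 13.3% ± 4.65 and 16.4% ± 6.53, and Ccnd3 held 5.76%, 3.57% and 3.32%. The Ccnd1 share was 37.3% to 52.3% in CHR, 79.3% to 91.7% in PAP and 71% to 87.1% in SCC, so neither kind of lesion overlapped the skin. Within mice it was higher by 36.1 ± 9.84 percentage points in PAP than in CHR (SD of the differences, 6 of 6 mice) and by 33.2 ± 8.78 in SCC than in CHR (6 of 6 mice). From PAP to SCC the difference was -2.91 ± 6.15 points, with a higher share in 2 of 6 mice. The summed level of the D-type cyclins was 944 ± 118 normalised reads per kb in CHR, 1594 ± 516 in PAP and 1496 ± 316 in SCC. These shares are descriptions, without a test. They depend on the exon lengths used, which were 4.709, 9.409 and 8.775 kb for Ccnd1, Ccnd2 and Ccnd3.

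**Figure D3:**
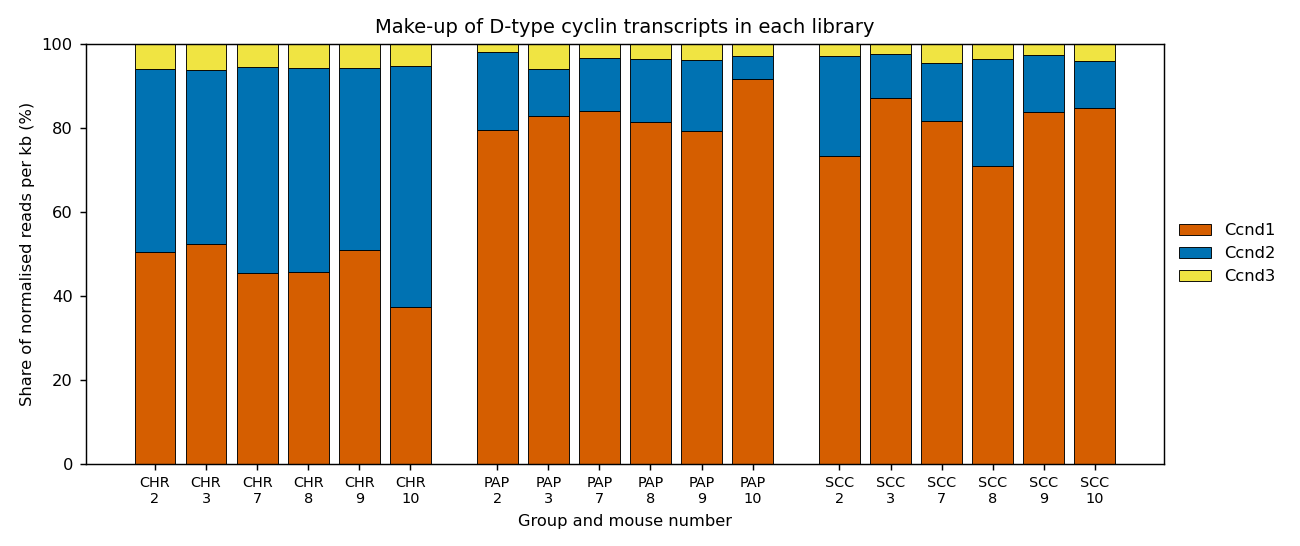
Share of Ccnd1, Ccnd2 and Ccnd3 in their summed normalised reads per kb of exon (vertical axis, percent) in each library (horizontal axis, group and mouse number). Ccnd1 held 37.3% to 52.3% in the CHR libraries and 71% to 91.7% in the lesions.

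The E-type cyclins were higher in both kinds of lesion. Ccne1 (cyclin E1, chr7:38097984-38107534, minus strand) had a normalised read count of 106, 113 and 158 (lowest, median and highest) in CHR, 203, 261 and 408 in PAP, and 203, 243 and 986 in SCC. The value of 986 came from the carcinoma of mouse 9, and the others lay at or below 465, with no carcinoma or papilloma in the range of the skin. Ccne1 rose by 0.87 ± 0.26 (log2, SE) in PAP against CHR (limma adjusted p = 0.0135) and by 1.11 ± 0.26 in SCC against CHR (limma adjusted p = 0.00526). Within mice it was 1.28-fold to 3.82-fold higher in the papilloma than in the skin, and 1.5-fold to 8.6-fold higher in the carcinoma, the latter in mouse 9. The log2 difference of SCC from PAP was 0.24, with a 95% interval of -0.32 to 0.81.

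Ccne2 (cyclin E2, chr4:11191351-11204779, plus strand) had 143, 171 and 189 normalised reads in CHR, 251, 430.2 and 636 in PAP, and 203, 304 and 689 in SCC. Neither lesion group overlapped the skin. Ccne2 rose by 1.06 ± 0.22 (log2, SE) in PAP against CHR (limma adjusted p = 0.00149) and by 0.86 ± 0.22 in SCC against CHR (limma adjusted p = 0.00869). Within mice the papilloma was 1.76-fold to 3.65-fold and the carcinoma 1.21-fold to 3.73-fold above the skin. SCC and PAP differed by -0.20, with a 95% interval of -0.68 to 0.28. Ccne1 made up 48.6% ± 6.31 of the E-type cyclin reads per kb in CHR, 46.2% ± 8.31 in PAP and 54.9% ± 14 in SCC (SD, n = 6).

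Both D-type cyclin kinases were higher in the lesions. Cdk4 (chr10:127063534-127067920, plus strand) varied little in skin, with 1859, 1946 and 2120 normalised reads (lowest, median and highest). It reached 2482, 3398 and 5148 in PAP, and 2508, 3653 and 4792 in SCC, with mouse 9 highest in both. No lesion fell within the range of the skin. Cdk4 rose by 0.85 ± 0.17 (log2, SE) in PAP against CHR (limma adjusted p = 0.000981) and by 0.82 ± 0.17 in SCC against CHR (limma adjusted p = 0.00239), in 6 of 6 mice each time. The difference of SCC from PAP was -0.04, with a 95% interval of -0.40 to 0.33.

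Cdk6 (chr5:3341485-3531008, plus strand) had 800.5, 1106 and 1555 normalised reads in CHR, 1579, 2570 and 3955 in PAP, and 1931, 2410 and 2798 in SCC. The lowest papilloma, of mouse 9, lay just above the highest skin sample, of mouse 3. Cdk6 rose by 1.13 ± 0.20 (log2, SE) in PAP against CHR (limma adjusted p = 0.000427) and by 1.06 ± 0.20 in SCC against CHR (limma adjusted p = 0.00131). Within mice the papilloma was 1.52-fold (mouse 2) to 4.94-fold (mouse 10) above the skin. The difference of SCC from PAP was -0.07, with a 95% interval of -0.50 to 0.36. Per kb of exon, Cdk4 made up 88.3% ± 2.19 of the summed Cdk4 and Cdk6 reads in CHR, 85% ± 6.48 in PAP and 86.3% ± 2.44 in SCC (SD, n = 6), and these ranges overlapped.

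The INK4 genes lie side by side on the minus strand of chromosome 4, with 11.6 kb between Cdkn2a (chr4:89274471-89294653) and Cdkn2b (chr4:89306299-89311039). Cdkn2a encodes different proteins from its 2 annotated starts. The upstream start gives p19ARF, which stabilises p53, and the downstream start gives p16INK4a, which inhibits CDK4 and CDK6. The deposited values hold 1 number for the gene, so that the transcripts could not be separated. The 120 bases before each start are shown because the value of Cdkn2a sums over both (GRCm38, RefSeq promoter sequences, minus strand, 5′ to 3′). Capitals mark a word of the E2F motif.
Upstream start, chr4:89294654-89294773: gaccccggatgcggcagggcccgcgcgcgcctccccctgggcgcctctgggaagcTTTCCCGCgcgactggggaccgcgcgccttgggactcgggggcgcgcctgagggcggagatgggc
Downstream start, chr4:89282193-89282312: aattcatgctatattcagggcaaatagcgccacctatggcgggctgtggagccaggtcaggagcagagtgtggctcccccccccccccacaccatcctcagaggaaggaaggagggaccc

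The E2F words searched were TTTCCCGC, TTTCGCGC, TTTGCCGC and TTTGGCGC on both strands. RefSeq promoter entries were matched for 7 of the 10 genes (Cdkn2a, Cdkn2b, Cdk6, Cdkn1b, Ccne1, Cdk4 and Ccnd3). In the 250 bases before the RefSeq start, an E2F word was found in the upstream Cdkn2a promoter alone among these, and in 1.9% of all 32851 promoters. Its first base in Cdkn2a lies 99 bases before the RefSeq start and 65 bases before the GENCODE start. The CCAAT box (CCAAT, both strands) was found in Cdkn1b and in 1 of the Ccnd3 promoters, and in 33.8% of all promoters. The AP-1 words TGACTCA and TGAGTCA were found in none of them and in 4.5% of all promoters.

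Cdkn2a had 128, 275 and 608 normalised reads (lowest, median and highest) in CHR, 421, 575 and 784 in PAP, and 158, 502 and 1159 in SCC. The skin of mouse 9 overlapped the papillomas, and the carcinomas ran from mouse 7 to mouse 10 and overlapped both other groups. Cdkn2a rose by 0.89 ± 0.33 (log2, SE) in PAP against CHR (limma adjusted p = 0.0347) and was higher in 5 of 6 mice, the exception being mouse 9. The call was lost without mouse 2 (limma adjusted p = 0.104), mouse 3 (0.0814), mouse 7 (0.073) or mouse 8 (0.0502). In SCC against CHR the log2 difference was 0.69 (limma adjusted p = 0.11), with a 95% interval of -0.01 to 1.40. The carcinoma of mouse 10 had the highest summed keratinocyte markers among carcinomas, at 776728, and the carcinoma of mouse 7 had the lowest, at 254871, together with the highest summed myeloid markers, at 43312. The other libraries did not follow this order. The carcinoma of mouse 9 had 764 normalised reads of Cdkn2a, the second highest, with the second lowest keratinocyte sum, at 423118. The carcinoma of mouse 8 had 290.3, the second lowest, with the second highest sum, at 617294. Among skin samples, that of mouse 9 had the highest Cdkn2a and the lowest keratinocyte sum, at 287791. The part of these cells in the level of Cdkn2a was not tested.

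Cdkn2b encodes p15INK4b. Its means were 459.7 ± 71.7 normalised reads in CHR, 524 ± 137 in PAP and 392 ± 207 in SCC (SD, n = 6). The carcinomas ran from 230.3 in mouse 7 to 742 in mouse 10, and the groups overlapped. Cdkn2b was not called in PAP against CHR (log2 difference 0.14, limma adjusted p = 0.668), in SCC against CHR (-0.29, 0.389) or in SCC against PAP (-0.43, 0.328). The 95% interval of the last difference was -0.98 to 0.12. Without mouse 10 it was -0.71 and was called (limma adjusted p = 0.0489).

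The nearest other listed gene of this locus, Mtap, a purine salvage enzyme that lies 93.4 kb from Cdkn2a (chr4:89137122-89181081), had means of 475 ± 39, 1588 ± 1551 and 1127 ± 948 normalised reads in CHR, PAP and SCC (SD, n = 6). The papilloma of mouse 2 gave 4674 and the carcinoma of mouse 3 gave 3015, which are the libraries with the highest Ccnd1. Mtap rose by 1.23 ± 0.38 (log2, SE) in PAP against CHR (limma adjusted p = 0.015), with no overlap of the groups, and was not called in SCC against CHR (0.87 ± 0.38, limma adjusted p = 0.0864). Dmrta1, on the other side of Cdkn2b, is not among the gene names of the deposited values, so it could not be analysed.

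Cdkn1b, which encodes p27 (chr6:134920401-134925513, plus strand), had means of 1398 ± 88.6 normalised reads in CHR, 1620 ± 342 in PAP and 1294 ± 303 in SCC (SD, n = 6). Its highest value, 2214, was the papilloma of mouse 10 and its lowest, 768, the carcinoma of mouse 9, which also had the highest Ccne1. It was not called in PAP against CHR (0.18, limma adjusted p = 0.355), SCC against CHR (-0.14, 0.517) or SCC against PAP (-0.32, 0.235), and the 95% interval of the last difference was -0.66 to 0.02.

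Compared per kb of exon, the order of the 10 genes differed between skin and lesions. In CHR the highest level was that of Cdk4, at 605 ± 28 normalised reads per kb, followed by Ccnd2 at 449 ± 102 and Ccnd1 at 440.2 ± 50.8 (SD, n = 6). The lowest was Ccne1 at 45.5 ± 7.51, and the ranges of all neighbours in this order overlapped. In PAP, Ccnd1 came first at 1316 ± 385, then Cdk4 at 1154 ± 345, and the range of Cdk4 did not overlap that of Cdkn2a, which followed at 488 ± 117. Ccnd3 was last at 52.8 ± 9.85, below the range of Ccne1. This rank depends on the exon length, which was 8.775 kb for Ccnd3 and 2.662 kb for Ccne1. Without division by length, the means in PAP were 463 normalised reads for Ccnd3 and 282 for Ccne1. In SCC, Ccnd1 (1210 ± 332) and Cdk4 (1107 ± 248) again led, and all neighbours overlapped. Exons of Ccnd1, Ccnd2, Ccnd3, Ccne2, Cdk4 and Cdk6 overlap those of a gene on the opposite strand, by 1100 bases for Ccnd1. Whether the counting used strand is not given in the sources used here, so that reads in these stretches cannot be assigned to 1 gene.

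Other genes of the pathway were taken from 6 lists. Of 14 E2F target genes of S phase, which serve DNA replication, all 14 were called higher in PAP against CHR and in SCC against CHR, and 0 were called in SCC against PAP by limma (0 at an unadjusted p under 0.05, and 0 by limma-voom for both). In SCC against PAP, limma called 9.85% of all genes, and 0 of 14 lies near that share. Over all genes, 23.3% were called higher in PAP against CHR and 15.8% in SCC against CHR. In the latter, Pcna lost its call without mouse 3, 7, 8, 9 or 10 (limma adjusted p up to 0.0992), and Mcm6 (0.066) and Cdc6 (0.0571) without mouse 9, among others. The median log2 fold change of the 14 genes was 1.01 in PAP against CHR and 0.92 in SCC against CHR. Ccna2, the S phase cyclin, rose by 1.44 ± 0.13 (log2, SE) in PAP against CHR (limma adjusted p = 2.29e-06). The ribonucleotide reductase subunits Rrm1 and Rrm2 rose by 1.21 and 1.26, and Mcm4, of the replicative helicase, by 1.21. Of 13 pocket proteins and E2F or DP factors, 6 were called higher and 2 lower in PAP against CHR (median 0.26), and 5 and 2 in SCC against CHR (median 0.13). These are 8 and 7 of 13, where 52.6% and 38.4% of all genes were called. Tfdp2 in PAP against CHR lost its call without mouse 2, 3, 7, 8 or 9 (limma adjusted p up to 0.142), and E2f2 without mouse 2 (0.0619). In SCC against CHR, E2f2 lost it without mouse 2, 3, 7, 8 or 10 (up to 0.0875) and E2f4 without mouse 8 (0.0523). E2f7 and E2f8, the atypical repressor E2Fs, rose by 2.24 and 1.42 in PAP against CHR, Tfdp1 by 0.88, and Rbl2, which encodes the pocket protein p130, fell by 0.76 on the log2 scale. In SCC against PAP, 0 of the 13 were called by limma (2 at an unadjusted p under 0.05) and 0 by limma-voom. The limma count is near the 9.85% of all genes that limma called there.

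Among the 4 other CDK inhibitors, Cdkn1c (p57) showed the largest change. It had 539 to 2152 normalised reads in CHR, 3.15 to 54.3 in PAP and 10.7 to 101 in SCC, so that skin and lesions did not overlap. Cdkn1c fell by 4.16 on the log2 scale in PAP against CHR (SE 0.34, limma adjusted p = 1.62e-06), and limma-voom on recovered reads gave -6.12. In SCC against CHR it fell by 3.46 (limma adjusted p = 2.67e-05). Skeletal muscle markers fell in the same comparisons, with all 8 called lower in both. So did all 5 sebaceous gland and all 5 measured myeloid markers, and 5 of 6 adipocyte and 5 of 6 T cell markers. Among skin samples, mouse 2 had the highest muscle sum (568331) and the lowest Cdkn1c. Among papillomas, mouse 2 had the highest muscle sum (28143) and the highest Cdkn1c. The part of muscle or of the other cells in the change of Cdkn1c was not tested. Cdkn2d (p19INK4d) rose by 0.81 ± 0.14 in PAP against CHR (limma adjusted p = 0.000481). Cdkn1a (p21) rose by 0.51 ± 0.14 (limma adjusted p = 0.00807) in the same comparison. In SCC against PAP, Cdkn1a fell by 0.48 on the log2 scale (limma adjusted p = 0.0458), a call that was lost without mouse 2, 7, 8, 9 or 10 (adjusted p up to 0.193) and under limma-voom (0.0688). Cdkn2c (p18INK4c) was called in none of the comparisons by limma.

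Of CDK2 and the CDK activators, 2 of 5 were called higher and 0 lower in PAP against CHR. The shares over all genes were 23.3% higher and 52.6% in either direction. The rise was 0.69 ± 0.11 (log2, SE) for Cdk2 and 0.72 ± 0.13 for the phosphatase gene Cdc25a. The same genes were called in SCC against CHR, at 0.57 and 0.76, where 38.4% of all genes were called, 15.8% higher. Of 8 genes for the turnover of G1 cyclins and p27, 3 were called higher and 1 lower in PAP against CHR, which is near the 52.6% of all genes called. Of the 3, Fbxw7 lost its call without mouse 3, 7, 8, 9 or 10 (limma adjusted p up to 0.122) and Skp1a without mouse 2, 3, 7, 8 or 9 (up to 0.142). Without mouse 3, 7, 8 or 9, 2 of the 8 were called in all. Cks1b, a cofactor of the ligase that marks p27 for degradation, rose by 0.96 ± 0.16, and Fbxo31, an F-box gene, fell by 0.68 on the log2 scale. Of 6 regulators of the INK4 locus, 2 were called higher and 1 lower in PAP against CHR, again near the 52.6% of all genes. The Polycomb gene Cbx7 fell by 1.38 (SE 0.16, limma adjusted p = 1.45e-05), the Polycomb methyltransferase gene Ezh2 rose by 0.70 and the transcription factor gene Ets2 rose by 0.71. In SCC against PAP, Ets2 fell by 0.68 (limma adjusted p = 0.0127) and was lower in all mice, and this call was lost without mouse 3, 7 or 8 (adjusted p up to 0.0902).

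**Figure D4:**
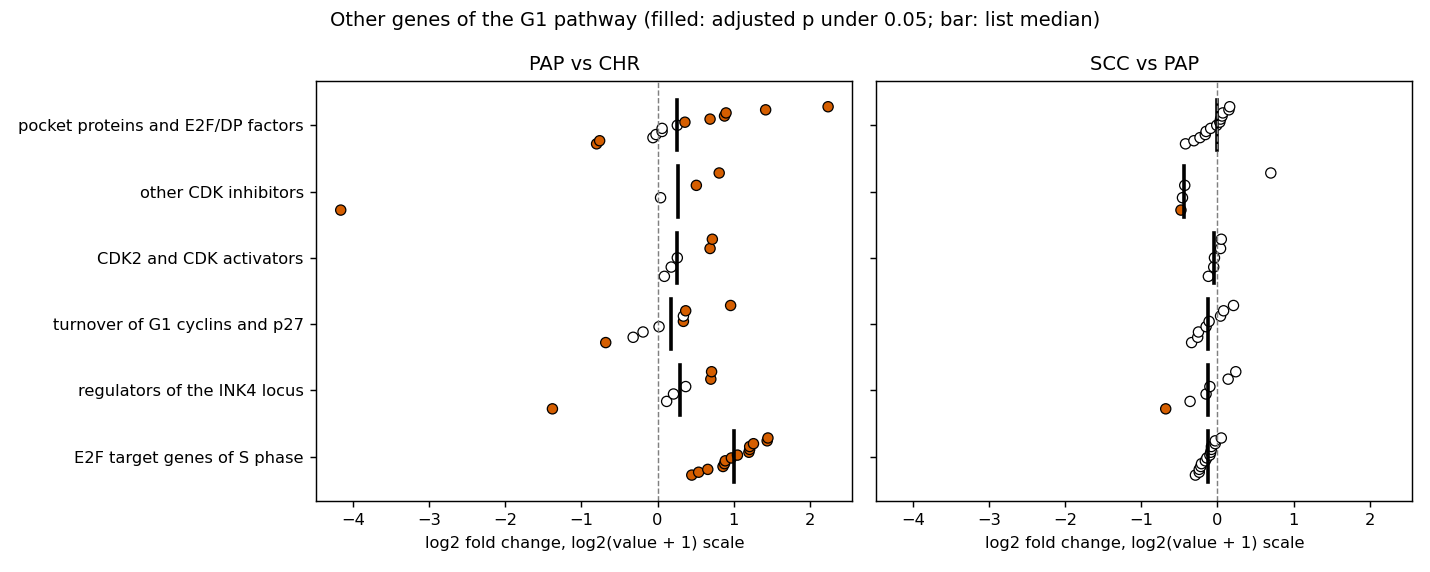
log2 fold change on the log2(value + 1) scale (horizontal axis) of the genes of the 6 pathway lists (vertical axis) in PAP against CHR and SCC against PAP. Points are genes, filled where the adjusted p is under 0.05, and bars are list medians. The 14 E2F target genes are all filled in PAP against CHR, with a median of 1.01, and none is filled in SCC against PAP. Over all genes, 52.6% were called in PAP against CHR and 9.85% in SCC against PAP.

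The genes with the most similar pattern were sought among 12764 genes by Pearson r of log2(value + 1) over the 18 libraries, which share mice, groups and tissue make-up. For Ccnd1 these were Chtf18 and Plk4 (r = 0.96 for both), for Ccne2 Polr2j (0.97) and Noc3l (0.96), for Cdk4 Gm4204 (0.96) and Cct2 (0.95), and for Cdk6 Cdh3 (0.95) and Pkm (0.94). Once each group mean was subtracted, r was 0.73 for Chtf18 and 0.94 for Polr2j. The lowest values of likeness were those of Cdkn2a, for which the nearest genes were 1500012F01Rik (0.81) and Ptcd1 (0.79). The nearest were Fam174b (0.90) and Zrsr1 (0.88) for Ccnd2, Nle1 (0.93) and Cox10 (0.92) for Ccne1, Ece1 (0.82) and Ptger4 (0.81) for Ccnd3, Cd109 (0.90) and Tmprss4 (0.88) for Cdkn2b, and Fbxo18 (0.87) and C030039L03Rik (0.82) for Cdkn1b.

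Among the 10 genes themselves, deviations from the group means were compared over the same 18 libraries, as a description. The largest values were those of Ccne1 with Cdkn1b (r = -0.74), Ccnd2 with Cdk6 (-0.73), Ccnd1 with Cdk4 (0.55) and Ccnd1 with Cdkn2b (-0.51). For Ccnd2 and Cdk6, the papilloma of mouse 10 had the lowest Ccnd2 and the highest Cdk6 of its group, and so did the carcinoma of mouse 10. For Ccne1 and Cdkn1b, the carcinoma of mouse 9 had the highest Ccne1 and the lowest Cdkn1b of all libraries.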

How the data were processed

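mRNA was sequenced in 18 libraries from 6 mice, and groups and mouse numbers came from the sample titles. Per the study's methods the authors aligned reads to mm10, counted them per gene with HTSeq, scaled them, applied a variance-stabilizing transformation and scaled batch medians. The deposited values are a score on the linear scale of that transformation, in which 0 reads appear as 39. All 18 columns were mapped. Of 14542 rows, 21 had no gene name (at most 0.236% of a library's total) and were left out.

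The transformation was inverted with a fitted zero level of 39.13, and 98.9% of values came out as whole reads (tolerance 0.5 of a value unit), as did 100% of those under 100. Size factors were 0.835 to 1.178, chosen to raise the share of whole reads at lower values. At high values, 1 read steps by less than 1 value unit where the size factor is over 1, so nearly any value passes there. The share of 98.9% is therefore a weak check of the recovery at high values. No 2 libraries were copies.

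limma 3.58.1 (R 4.3.3) was run on log2(value + 1), with a pseudocount of 1, all 18 libraries, mouse as a fixed block and two-sided tests with Benjamini-Hochberg adjustment over 14521 genes. The libraries of a number come from the same mouse, and the correlation of their deviations from the group means was -0.24 to 0.51. Tested on simulated data for PAP against CHR with 200 of 14521 genes changed, it recovered 12% of 1.5-fold, 80% of 2-fold and 100% of 3-fold rises and 68% of 0.5-fold changes, with 2.99% false calls. The simulation used the same setting of the spread for all genes and groups. It also changed far fewer genes than the 52.6% called in the data. These rates may therefore not hold for the data. Alternatives were limma-voom on recovered reads, log2 of recovered counts, a filter of at least 10 reads on average or in every library, array weights, no block, only the groups compared, each mouse left out, and, chosen after seeing the data, the papilloma of mouse 2 or the carcinoma of mouse 3 left out.

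Shares and levels per kb used exon lengths of GENCODE M21 (GRCm38), merged over all annotated transcripts of a gene. The named genes were the 10 genes described, at most 4 genes of lowest adjusted p per pathway list and comparison, all genes of lists of 5 or fewer, Mtap and Dmrta1, and the 2 genes most like each of the 10 among those with a mean of at least 50 reads. Outside this rule, Pcna, Mcm6, Cdc6, E2f2 and E2f4 were named because a call of theirs was lost when a mouse was left out. Neighbours of Ccnd1 were added after its values had been seen. The 10 genes and all lists were chosen with earlier results of these data known. Python 3.11.15, pandas 2.3.3 and matplotlib 3.10.9 were used. P-values rest on how the differences between tissues vary from mouse to mouse, with 1 sample of each kind per mouse. Differences in level shared by all samples of a mouse are taken out by the block. Variation between lesions of 1 mouse is part of that spread and was not measured apart. Some single-gene results are not reported here.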

Additional observations from a re-analysis of the deposited data

Results flagged for a closer look

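Of 48 groups of 6 libraries tested for a single distant value (Dixon's test at the 95% level), 6 held one, where chance gives about 1 in 20 groups. The papilloma of mouse 2 was far above the other papillomas in Ccnd1, at 9626 normalised reads, and in Mtap, at 4674, and it had the lowest share of Ccne1 in E-type cyclin reads per kb, at 30.5%. The carcinoma of mouse 3 was far above the others in Mtap, at 3015. The carcinoma of mouse 9 was far above the others in Ccne1, at 986. The skin of mouse 2 was far below the other CHR libraries in Ccnd3, at 370.4.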

How the results depend on the processing

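Of 450 values (the 10 genes, 3 comparisons and 15 alternatives), 427 kept their direction and their side of the threshold, 10 lost the call, 2 gained it and 11 changed sign, none of which was called. In PAP against CHR the calls of Ccnd1, Ccnd2, Ccne1, Ccne2, Cdk4 and Cdk6 held under all 15. In SCC against PAP the sign changed for Ccnd1 (0.08 without mouse 2 and 0.08 without its papilloma), Ccne1 (-0.02 without mouse 9), Ccne2 (0.01 without mouse 2), Cdk4 (0.02 by limma-voom, 0.11 without mouse 2, 0.01 without mouse 8, 0.08 without the papilloma of mouse 2), Cdk6 (0.02 without mouse 10) and Mtap (0.06 without mouse 2, 0.03 without its papilloma). The sign also changed for Ccnd3 in PAP against CHR (0.05 without mouse 10) and for Cdkn1b in SCC against CHR (0.00 without mouse 9). As each mouse was left out, the lowest and highest log2 values in SCC against PAP were -0.34 and 0.08 for Ccnd1, -0.02 and 0.45 for Ccne1, -0.36 and 0.01 for Ccne2, -0.18 and 0.11 for Cdk4 and -0.22 and 0.02 for Cdk6, and they were -0.10 and 0.05 for Ccnd3 in PAP against CHR and -0.23 and 0.00 for Cdkn1b in SCC against CHR. The count of the 10 genes called in SCC against PAP was 1 with array weights (Cdkn2b, -0.62) and ranged from 0 to 1 as each mouse was left out. Over all genes, 1430 were called in SCC against PAP, 810 without the replicate block, 709 with at least 10 reads in every library, 2949 with array weights, 801 without the carcinoma of mouse 3, and 0 with only those groups in the fit (2830 at an unadjusted p under 0.05). As each mouse was left out this count ranged from 0 (without mouse 7 or mouse 8) to 1995, and it was 471 without mouse 3. The cause was not tested. The block changed no call of the 10 genes. With at least 10 reads in every library, 54.5% of calls in PAP against CHR were higher, against 44.4% without a filter and 44.7% with a mean of at least 10 reads. Without division by exon length, skin, papillomas and carcinomas had a Ccnd1 share of 31.1%, 71.7% and 67.7% and a Cdk4 share of 63.9%, 58.4% and 59.5%, and the Ccne1 share in CHR was 41.9%. The alternatives without 1 lesion were chosen after seeing the data. Small changes were often missed on simulated data, so that an uncalled gene is not shown to be alike between groups.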

Other observations

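Genes that neighbour Ccnd1 on chromosome 7 were examined after its values had been seen. Cttn, which encodes the actin-binding protein cortactin, rose by 0.79 ± 0.11 (log2, SE) in PAP against CHR (limma adjusted p = 4.77e-05) and by 0.53 ± 0.11 in SCC against CHR (limma adjusted p = 0.00191), in 6 of 6 mice each time. Fadd, a death receptor adaptor gene, rose by 0.35 ± 0.13 in PAP against CHR (limma adjusted p = 0.0397), a call lost without mouse 2, 3, 7, 8 or 10 (up to 0.0998), and was not called in SCC against CHR (0.23, limma adjusted p = 0.187). Ppfia1 (0.23, limma adjusted p = 0.0554) and Oraov1 (0.24, limma adjusted p = 0.0862) were not called in PAP against CHR. Oraov1 overlaps Ccnd1 on the opposite strand. The highest papilloma was that of mouse 9 for Cttn, Ppfia1 and Oraov1 and that of mouse 10 for Fadd, whereas it was that of mouse 2 for Ccnd1.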
